A study of Mus musculus with 7 samples.

Results

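The genes described here are 8 transcriptional regulators of lymphocytes, identified by gene symbol and chosen with earlier results of these data known. The set holds Tcf7 and Lef1, the E protein genes Tcf3, Tcf4 and Tcf12, and the Id protein genes Id1, Id2 and Id3. They are 8 of the 25469 genes with a count in at least 1 library, and all 8 were among the 13904 genes tested. The libraries came from CD4+CD25+ splenocytes of WT mice, which per the study's methods were male C57BL/6 mice, and the cells were isolated with magnetic beads. The aged group held 3 biological replicates from 18-month mice, and the young group held 4 from 8-week mice according to the labels. The study's methods state a different age for its young mice. No treatment or surgery is named in the labels of either group. The comparison asks how the regulatory T cells (Tregs) of aged mice differ from those of young mice. CD25 is also carried by activated conventional T cells, so the selection may not yield Tregs alone, and the share of such cells was not tested here. The paper states that the splenic Tregs it isolated for transfusion were checked by flow cytometry.

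TCF-1, encoded by Tcf7, and LEF-1, encoded by Lef1, are high mobility group proteins that bind a shared DNA motif, can act with β-catenin or with Groucho/TLE corepressors, and are highest in naive and memory-like T cells. E proteins are basic helix-loop-helix factors that bind E-box motifs as dimers, and Id proteins lack the basic region, pair with E proteins and keep them off DNA. In Tregs, TCF-1 and LEF-1 are known to shape the resting state, and Id2 and Id3 are known to be needed for the maintenance of the lineage. The symbols invite confusion, since Tcf3 encodes E2A and Tcf4 encodes E2-2, which are not the Wnt-pathway factors of Tcf7l1 and Tcf7l2.

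The libraries held 10734234 to 13649310 counts on genes, and the deepest aged library held fewer than the shallowest young one. Foxp3, the lineage factor of Tregs, was read at 394 to 622 CPM (counts scaled to library size, on the TMM scale used throughout) in every library, with a log2 fold change of 0.21 and an adjusted p of 0.409 by edgeR's quasi-likelihood test with Benjamini-Hochberg adjustment, the test behind every adjusted p below. Cd4 had a log2 fold change of -0.30 (adjusted p = 0.117), and of the alternatives only DESeq2 called it lower (-0.33, adjusted p = 0.0387 by DESeq2). Il2ra, which encodes CD25, had one of -0.61 (adjusted p = 0.0588), and without aged replicate 1 it passed the threshold at -0.81 (adjusted p = 0.0158). Its fall was also called by DESeq2 (adjusted p = 0.00652), limma voom (0.0467) and limma-trend (0.0495), without the filter on low counts (0.0411) and with GC content and length trends removed (0.0409). Mitochondrially encoded genes took 5.081% to 10.69% of the aged counts, with the highest share in aged replicate 1, and 2.627% to 3.229% of the young counts. That split runs with age and cannot be told apart from it.

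Of the 8 genes, 3 fell with age by an adjusted p under 0.05, namely Lef1, Tcf3 and Tcf7, and none rose. Over all genes tested, 6.94% were called lower in the aged group and 9.8% higher, 16.7% in either direction. Without adjustment, 5 of the 8 had a p under 0.05, all of them lower in the aged group, against 32.6% of all genes in either direction. No member rose by DESeq2 (17.6% of its genes called), limma voom or limma-trend either, and each of these tools called 3 members lower. The 3 called genes were also those whose aged and young libraries did not overlap, which held for 14.4% of all genes in this direction and 29.9% in either. Of the 8, 6 had a log2 fold change below 0, against 48% of all genes. The median log2 fold change of the 8 genes was -0.39, against 0.02 over all genes tested. Because the 8 were chosen with earlier results of these data known, these counts do not bear independently on their direction. In bulk RNA, fewer cells that express a gene and less RNA per cell cannot be told apart.

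**Figure D1:**
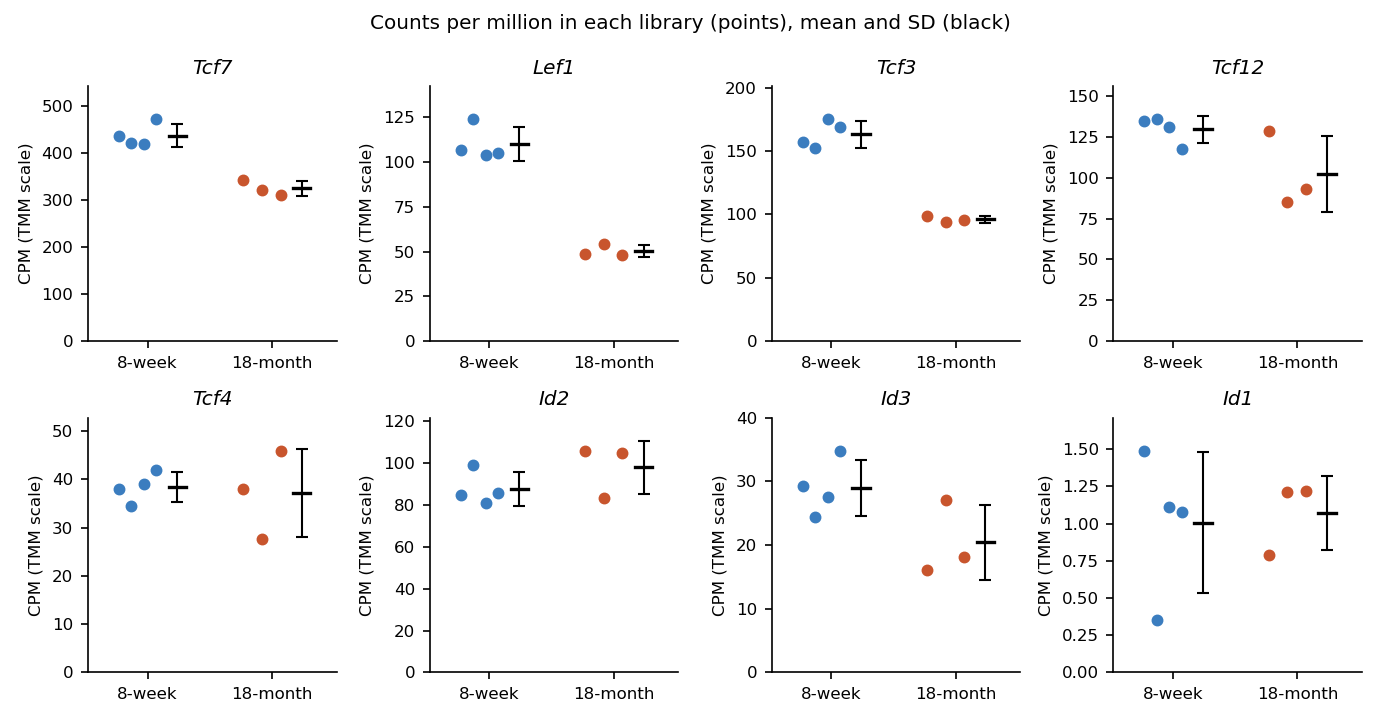
CPM on the TMM scale (y axis, linear from 0) for each gene in the 4 libraries of 8-week mice (blue) and the 3 libraries of 18-month mice (orange), with the mean and SD in black. The groups are apart for Tcf7, Lef1 and Tcf3, and they overlap for the other 5 genes.

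Lef1 fell the most of the 8. LEF-1 is the closest relative of TCF-1 in T cells, and its transcript is high in naive cells. In aged replicates 1 to 3 it was read at 48.7, 54 and 47.8 CPM, against 107, 124, 104 and 105 CPM for young replicates 1 to 4. Every young library lay far above every aged library, and young replicate 2 was the highest. Mean levels were 50.2 ± 3.34 (aged, SD, n = 3) and 109.9 ± 9.17 CPM (young, SD, n = 4), a 2.19-fold higher level in young cells. Its fitted log2 fold change, -1.13 (standard error 0.1, 95% interval -1.36 to -0.90, adjusted p = 0.000617 by edgeR), was undercut by 298 of the genes tested, or 2.14%. The call was kept in all 7 fits that left out 1 library, with log2 fold changes from -1.19 to -1.07. The exact permutation test over libraries gave p = 0.0571, the smallest that 3 against 4 libraries allow. Lef1 (ENSMUSG00000027985) lies on the plus strand at chr3:131110471-131224356 in GRCm38, and 13.7% of its exon length is also covered by exons of Gm43352 on the other strand, so that some of its reads could not be assigned without strand.

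Tcf3 encodes E2A, whose products E12 and E47 act in thymocytes and B cells. The aged libraries stood at 98.6, 93.8 and 95.3 CPM and the young libraries at 157, 152, 175 and 169 CPM. All aged values lay within a narrow band, far under the lowest young value. Aged cells averaged 95.9 ± 2.5 CPM (SD, n = 3), and young cells 163 ± 10.3 CPM (SD, n = 4), 1.7-fold more. The fall in Tcf3 was -0.77 on the log2 scale (standard error 0.0896, 95% interval -0.97 to -0.56, adjusted p = 0.00158 by edgeR), with 4.59% of the genes tested lower. It was called in all 7 fits without 1 library, with values from -0.80 to -0.73. Tcf3 (ENSMUSG00000020167) is on the minus strand at chr10:80409514-80433647 in GRCm38, with no exon shared with another gene in GENCODE M21.

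Lef1 and Tcf3 showed the clearest falls, and their upstream sequences are shown because the protein families described here bind these 2 motifs. The 250 bases before the start of each were taken from the RefSeq promoter table (GRCm38.p6), which held an entry for 6 of the 8 genes and lists 4 starts for Lef1, of which the first is used. That start lies upstream of the GENCODE start of Lef1. The Lef1 window is chr3:131110047-131110296 on the plus strand, and the Tcf3 window is chr10:80433636-80433885 on the minus strand. Both are written 5′ to 3′ along the gene, and capitals mark every E-box (CANNTG) and every TCF/LEF motif (CTTTGA or CTTTGT), each searched on both strands.
Lef1: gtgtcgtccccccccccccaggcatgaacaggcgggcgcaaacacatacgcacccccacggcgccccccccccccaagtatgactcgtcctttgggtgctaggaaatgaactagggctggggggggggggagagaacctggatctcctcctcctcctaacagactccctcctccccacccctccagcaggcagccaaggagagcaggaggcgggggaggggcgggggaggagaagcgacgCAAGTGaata
Tcf3: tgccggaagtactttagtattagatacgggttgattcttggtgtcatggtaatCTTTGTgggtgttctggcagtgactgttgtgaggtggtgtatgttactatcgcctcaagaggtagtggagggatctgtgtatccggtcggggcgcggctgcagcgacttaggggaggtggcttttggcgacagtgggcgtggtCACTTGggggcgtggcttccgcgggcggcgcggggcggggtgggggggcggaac
In the Lef1 window, 66.4% G or C, the only match was the E-box CAAGTG, whose first base is at -10 from the start. The Tcf3 window, 59.6% G or C, held the E-box CACTTG at -54 and the TCF/LEF motif CTTTGT at -197. An E-box occurs in 66% of the 27025 promoter windows of the same length and a TCF/LEF motif in 27.7%, so such matches are common. They are matches of letters only, and binding was not measured.

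Tcf7 was by far the most abundant of the 8 transcripts per length and fell by less than Lef1. It was read at 341, 320.4 and 310.5 CPM in the aged and at 435, 421, 418 and 471 CPM in the young libraries. The highest aged library stayed under the lowest young one. Its mean of 324 ± 15.3 CPM in aged cells (SD, n = 3) stood against 436 ± 24.1 CPM in young cells (SD, n = 4), a change of -25.8%. For Tcf7 this is a log2 fold change of -0.43 (standard error 0.101, 95% interval -0.66 to -0.20, adjusted p = 0.0235 by edgeR), and 12.1% of the genes tested had a lower one. The size held over the 7 fits without 1 library, from -0.47 to -0.39. The call held in 2 of them and was lost without aged replicate 2 (adjusted p = 0.0601), aged replicate 3 (0.0903), young replicate 1 (0.0625), young replicate 3 (0.0572) or young replicate 4 (0.0762). Tcf7 (ENSMUSG00000000782) is on the minus strand at chr11:52252371-52283014 in GRCm38.

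The balance between the pair differed between ages. Per kilobase of exon, Tcf7 exceeded Lef1 by 23.4, 19.9 and 21.7 times in the aged and by 13.7, 11.4, 13.5 and 15 times in the young libraries, with no overlap between the groups. On the log2 scale the ratio was 4.44 ± 0.12 (SD, n = 3) against 3.73 ± 0.16 (SD, n = 4), a difference of 0.70. Lef1 made up 4.43% ± 0.349 of the summed TCF/LEF level in aged and 7.02% ± 0.755 in young cells. With the longest transcript as the length in place of all exons, the log2 ratios were 3.26 and 2.56. A change of length shifts every library alike, so it cannot move the difference of 0.70. With GC content and length trends removed, the log2 fold changes were -0.56 for Tcf7 and -1.11 for Lef1. These ratios are given as a description, without a test.

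The other E protein genes did not pass the threshold. Tcf12, which encodes HEB, the usual dimer partner of E2A in thymocytes, was at 129, 85.3 and 93.1 CPM in aged and at 135, 136, 131 and 118 CPM in young libraries. Aged replicate 1 lay among the young libraries, and the other two aged libraries lay under all of them. Tcf12 was fitted at a log2 fold change of -0.35 (95% interval -0.68 to -0.01, adjusted p = 0.142 by edgeR). Without aged replicate 1 it was -0.55 and passed the test (adjusted p = 0.00992) in a fit that called 21.5% of all genes, and that library is the one with the highest mitochondrial share, 10.69%. The part of that share in the value was not tested. Tcf12 (ENSMUSG00000032228) is at chr9:71842688-72111871, minus strand.

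Tcf4 encodes E2-2, the E protein that defines plasmacytoid dendritic cells and is also used by B cells. It was read at 38, 27.7 and 45.9 CPM in the aged and 38, 34.4, 39 and 41.9 CPM in the young libraries. The aged libraries held both the lowest and the highest value, with a coefficient of variation of 24.5% against 8.1% in the young. At a log2 fold change of -0.04 (95% interval -0.42 to 0.33, adjusted p = 0.888 by edgeR), Tcf4 was not called, and the value was 0.13 without aged replicate 2. The summed CPM of the plasmacytoid dendritic cell markers was 494, 377 and 605 for the aged libraries and 378, 390.2, 373 and 424 for the young ones, each in replicate order. Genes that T cells also express, such as Lag3, make up part of this sum. Of the 9 markers tested, 2 rose and 2 fell, with a median log2 fold change of -0.17. The part of such cells in the Tcf4 level was not tested. Tcf4 (ENSMUSG00000053477) spans chr18:69343356-69689079, plus strand.

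Among the Id protein genes none was called. Id2, the main Id transcript here, encodes an inhibitor that accompanies effector differentiation of T cells. It was at 106, 83.5 and 105 CPM in the aged and at 84.9, 99.2, 81 and 85.6 CPM in the young libraries. The ranges overlapped, with 2 aged libraries above all young ones and aged replicate 2 among the lowest. A log2 fold change of 0.16 was fitted (standard error 0.117, 95% interval -0.10 to 0.43, adjusted p = 0.375 by edgeR). Id2 (ENSMUSG00000020644) lies at chr12:25093799-25097140, minus strand.

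Id3 encodes the Id protein linked to naive and resting lymphocytes. Its levels were 16.1, 27.1 and 18.1 CPM in the aged and 29.2, 24.4, 27.5 and 34.8 CPM in the young libraries. Aged replicates 1 and 3 lay under every young library, while aged replicate 2 lay within the young range. Id3 was fitted at -0.51 on the log2 scale (95% interval -0.97 to -0.04, adjusted p = 0.122 by edgeR). Without aged replicate 2 it was -0.76 and called (adjusted p = 0.0314) in a fit that called 12.2% of all genes, and with the trends on GC content and length removed it was -0.69 and called (adjusted p = 0.0254). Id3 (ENSMUSG00000007872) lies at chr4:136143497-136145755, plus strand.

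Id1 had the lowest counts of the 8 genes. It had 9, 12 and 13 counts in the aged and 17, 5, 14 and 15 counts in the young libraries, where 3 counts, taken as the limit of detection, equal 0.2102 to 0.3021 CPM. Levels of 1.07 ± 0.246 (aged, SD, n = 3) and 1 ± 0.474 CPM (young, SD, n = 4) overlapped widely. The log2 fold change of 0.10 had a 95% interval from -0.96 to 1.17 (adjusted p = 0.905 by edgeR), which leaves changes of either sign within it. Id1 (ENSMUSG00000042745) lies at chr2:152736251-152737410, plus strand.

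**Figure D2:**
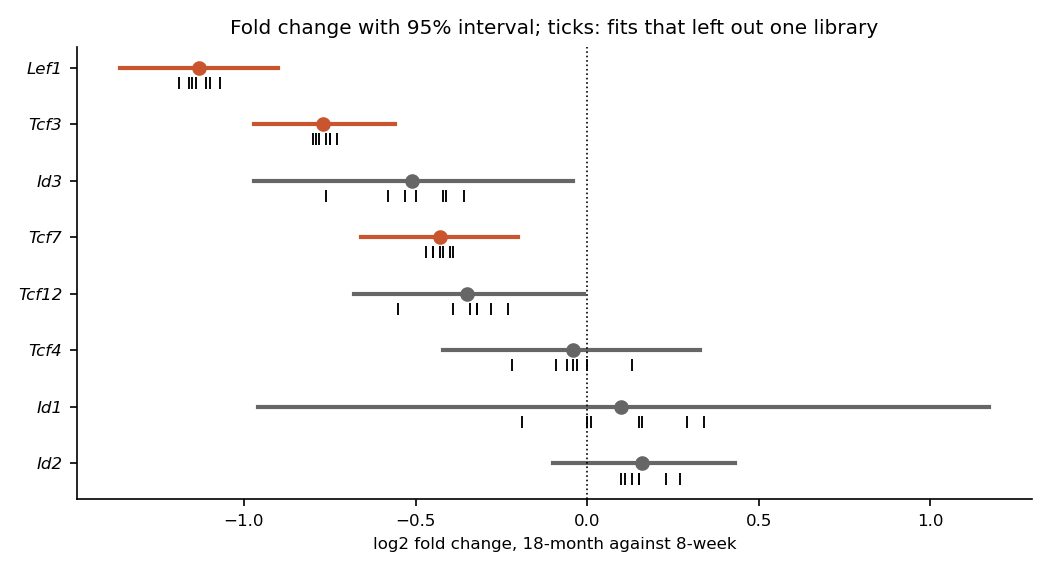
Log2 fold change of 18-month against 8-week libraries (x axis) for each gene, with the 95% interval from edgeR as a bar, orange where the adjusted p was under 0.05 and grey elsewhere, and a tick for each of the 7 fits without 1 library. The ticks of Lef1 stay between -1.19 and -1.07, while those of Tcf4 and Id1 fall on both sides of 0.

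Within the Id family, Id2 exceeded Id3 per kilobase by 4.84, 2.26 and 4.27 times in the aged and by 2.14, 2.99, 2.17 and 1.81 times in the young libraries. Aged replicates 1 and 3 had the highest ratios of the 7, and aged replicate 2 was within the young range. The log2 ratio was 1.85 ± 0.59 (SD, n = 3) against 1.16 ± 0.30 (SD, n = 4), a difference of 0.69 that was 1.02 without aged replicate 2 and 0.48 without aged replicate 1. Unlike the Tcf7 to Lef1 ratio, its groups overlapped.

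Compared per kilobase of exon, the order of levels in young cells was Tcf7 at 166 ± 9.19 CPM per kb, Tcf3 at 40.4 ± 2.54, Id2 at 36 ± 3.24, Id3 at 16.2 ± 2.43, Lef1 at 12.5 ± 1.04, Tcf12 at 8.38 ± 0.515, Tcf4 at 1.4 ± 0.113 and Id1 at 0.866 ± 0.409 (SD, n = 4 for each). In aged cells the order was Tcf7 at 123 ± 5.84, Id2 at 40.3 ± 5.22, Tcf3 at 23.7 ± 0.619, Id3 at 11.4 ± 3.28, Tcf12 at 6.59 ± 1.49, Lef1 at 5.71 ± 0.38, Tcf4 at 1.36 ± 0.333 and Id1 at 0.923 ± 0.212 CPM per kb (SD, n = 3 for each). Tcf3 stood above Id2 in young cells and under it in aged cells, and Lef1 and Tcf12 also changed places. Among neighbours in these orders, mean ± SD overlapped for Tcf3 and Id2 in young cells, and for Tcf12 and Lef1 and for Tcf4 and Id1 in aged cells. The order of Lef1, Tcf12 and Id3 depends on the length used, since Lef1 came to 30.1 CPM per kb in young cells with its longest transcript of 3656 bases in place of 8788 bases of exon. Over both ages, Tcf7 stood above 98.2% of the genes tested per kilobase and Id1 above 15.6%.

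Summed over each family, the TCF/LEF level was 135, 128 and 124 CPM per kb in the aged and 178, 174, 171 and 191 in the young libraries. The E protein level was 34.1, 29.7 and 31.3 CPM per kb in the aged and 49, 47.7, 53.1 and 50.9 in the young libraries. In both families every aged library lay under every young one, with means of 0.722 and 0.631 of the young level. The Id protein level was 53.1, 50.4 and 54.2 CPM per kb in the aged and 52.4, 54.6, 49.5 and 55.4 in the young libraries, overlapping and at 0.992 of the young mean. Inside the E protein sum, Tcf3 held 75.1% ± 3.26 in aged and 80.5% ± 1.46 in young cells, and Tcf12 held 20.7% ± 3.18 and 16.7% ± 1.56.

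**Figure D3:**
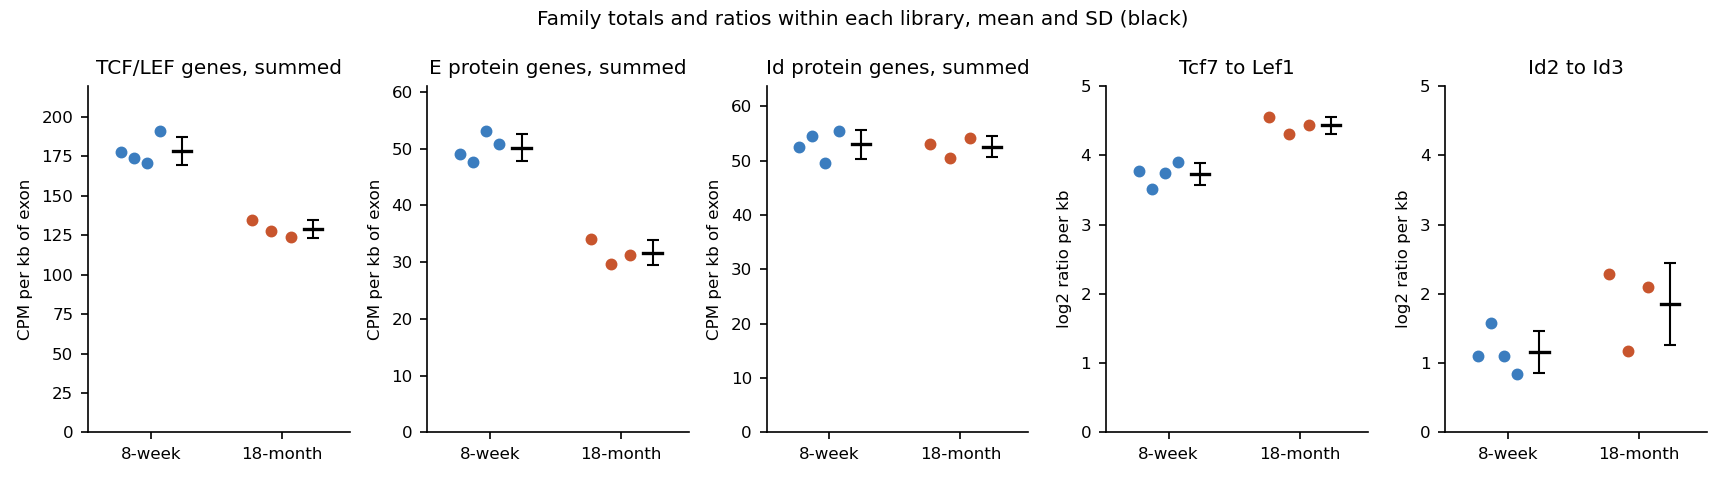
Summed CPM per kb of exon for the TCF/LEF, E protein and Id protein genes, and the log2 ratios per kb of Tcf7 to Lef1 and of Id2 to Id3, in each library of 8-week (blue) and 18-month (orange) mice, with the mean and SD in black. The TCF/LEF and E protein sums are lower in all aged libraries, with means of 129 against 179 and of 31.7 against 50.2, while the Id protein sums overlap.

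The partners of TCF-1 and LEF-1 were read from a list of 25 cofactors and Wnt pathway genes, of which 22 were tested. Of these, 5 fell and none rose by edgeR, 22.7% against 16.7% of all genes. By the unadjusted p, 9 were lower and none higher, against 15.1% of all genes lower. The adjusted count of falls changed with single libraries, from 1 to 9 in the fits without 1 library. It was 0 with a block for the replicate number. The genes that fell were Tcf7l1, a TCF relative used mainly as a repressor, at -1.02 (adjusted p = 0.0469), Bcl9l, a β-catenin coactivator, at -0.77 (0.0435), Aes, a short Groucho/TLE protein, at -0.50 (0.0194), Axin1, a scaffold of the β-catenin destruction complex, at -0.48 (0.0142), and Ctbp1, a corepressor, at -0.37 (0.0248). Without aged replicate 3 none of these 5 was called, and the list's 1 call was Jup, a relative of β-catenin (-1.17, adjusted p = 0.0352). It had 1 call without young replicate 4, which was Axin1, and 9 without aged replicate 1. It had 2 without young replicate 1 or 3, and 3 without aged replicate 2. Tcf7l1, at 1.52 CPM in aged and 3.1 CPM in young cells, was called in 1 of the 7 fits without 1 library, namely that without aged replicate 1, and Bcl9l and Ctbp1 in 2 each, those without aged replicate 1 or young replicate 2. The Aes call was lost without aged replicate 3 or young replicate 4 (adjusted p up to 0.0728), and the Axin1 call without aged replicate 3 (0.054). Ctnnb1, which encodes β-catenin, was at 182 ± 19.5 CPM against 223 ± 5.44 CPM, with no overlap and a log2 fold change of -0.29 that was not called (adjusted p = 0.0824 by edgeR), though it was called without aged replicate 2 (adjusted p = 0.0424). Axin2, the common readout of Wnt signalling, was at 19.4 ± 4.12 CPM against 17.9 ± 2.11 CPM (log2 fold change 0.11, adjusted p = 0.702). Tcf7l2 was not called (-0.54, adjusted p = 0.239).

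Most of the T cell genes linked to TCF-1 and LEF-1 moved, and most of them downward. Of 22 listed and tested, 16 fell and 2 rose by edgeR, 81.8% against 16.7% of all genes, with a median log2 fold change of -0.86. This list, like all 18 gene lists used here, was put together with earlier results of these data known. The counts of these lists therefore do not bear independently on their direction. Dapl1, a transcript of naive T cells, went from 8.62 ± 1.29 CPM in young to 1.63 ± 0.331 CPM in aged cells (log2 fold change -2.40, adjusted p = 0.000816). Igfbp4 had a log2 fold change of -1.73 (adjusted p = 0.00841). Nsg2 fell from 193 ± 17.9 to 67.9 ± 7.15 CPM (-1.50, adjusted p = 0.00038), and Satb1, a chromatin organizer of T cells, fell from 230.2 ± 15.1 to 85.3 ± 18.1 CPM (-1.43, adjusted p = 0.00114). These 4 genes were called in all 7 fits without 1 library. Ccr7, which encodes a lymph node homing receptor, was among the 16 at -0.77. It was not called without aged replicate 2, aged replicate 3 or young replicate 1 (adjusted p up to 0.0793). The 2 that rose were Prdm1, which encodes Blimp-1, at 1.20 (adjusted p = 0.0326) and the follicular receptor gene Cxcr5 at 0.81 (adjusted p = 0.00296). Of this pair, Prdm1 was called in 2 of the 7 fits without 1 library, those without aged replicate 2 or young replicate 2, and Cxcr5 in all. Bcl6, Slamf6, Eomes and Il7r were not called.

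Of the lymphocyte genes linked to E proteins, 4 of 16 tested fell and 2 rose, 37.5% against 16.7% of all genes, with a median log2 fold change of -0.20. Rag1, a recombinase gene that E proteins switch on in lymphocyte precursors, had 1, 73 and 8 counts in the aged and 260, 220, 975 and 430 counts in the young libraries. The aged libraries were all lower, at -3.78 on the log2 scale (adjusted p = 0.0376 by edgeR, standard error 1.01), with values from -6.45 to -3.10 without 1 library, and it was called only without aged replicate 2 or young replicate 2. Spib, a transcription factor gene of B cells and plasmacytoid dendritic cells, fell from 206 ± 43.3 to 87.8 ± 27.4 CPM (-1.23, adjusted p = 0.0137). Ets1 fell by 0.57 and Dtx1 by 0.56 on the log2 scale. Among the fits without 1 library, Ets1 was called only without aged replicate 1 (adjusted p = 0.0191, up to 0.108 in the others), and Dtx1 was lost only without young replicate 4 (0.0504). Socs3 rose by 1.20 (adjusted p = 0.00427) and Cdkn1a, which encodes p21, rose by 0.73 (adjusted p = 0.0317), the latter called only without aged replicate 2 or young replicate 2 among the fits without 1 library. The number of falls was 4 in the full fit, 1 without young replicate 4, and 2 without aged replicate 3, young replicate 1 or young replicate 3. The B cell markers overlapped between ages at 1107 to 2068 CPM in aged and 1579.6 to 2490.3 CPM in young libraries, and their part in these levels was not tested.

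A list of E protein partners and other helix-loop-helix factors held 21 genes, of which 10 were tested. Of these, 1 rose and 2 fell, 30% against 16.7% of all genes, with a median log2 fold change of 0.08. Bhlhe40, a repressor gene of activated T cells, rose from 69.4 ± 14 to 165 ± 62.6 CPM (log2 fold change 1.25, adjusted p = 0.018), a call lost without aged replicate 3, young replicate 3 or young replicate 4, with adjusted p-values up to 0.0681. Lmo4, an adaptor gene of LIM-domain complexes, fell from 39.1 ± 3.95 to 20.6 ± 1.43 CPM (-0.92, adjusted p = 0.00216). Cbfa2t3, which encodes the corepressor ETO2, fell from 19.6 ± 3.66 to 9.93 ± 2.25 CPM (-0.98, adjusted p = 0.0179) and was called without aged replicate 1, aged replicate 2 or young replicate 2 only. Id4, the remaining Id gene, was at or under 3 counts in every library.

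Genes upstream of the Id genes moved in both directions, with 3 of 12 tested higher and 2 lower, 41.7% against 16.7% of all genes and a median log2 fold change of 0.04, while Id1, Id2 and Id3 were not called. Bmpr1a, a receptor gene for bone morphogenetic proteins, was at 15.4 ± 1.43 CPM in aged and 2.84 ± 1.01 CPM in young cells, a log2 fold change of 2.44 (adjusted p = 0.00125). Smad1, a mediator gene of that pathway, rose by 0.77 (adjusted p = 0.0106), and Egr2, an activation-induced regulator that can switch on Id3, rose by 0.97 (adjusted p = 0.00343). All 3 were called in each of the 7 fits without 1 library. Smad7, which encodes an inhibitor of the pathway, fell by 0.55 (adjusted p = 0.0224) and Smad2 by 0.49 (adjusted p = 0.0293). The Smad7 call was lost without aged replicate 2, aged replicate 3, young replicate 1 or young replicate 4 (adjusted p up to 0.0779), and Smad2 was called only without aged replicate 1 (0.0133, up to 0.0817 in the others).

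Effector Tregs are the activated state, in which Tcf7 and Lef1 are known to be low. Of 19 markers of this state, 10 rose and none fell by edgeR, 52.6% against 16.7% of all genes (17 higher and none lower by the unadjusted p, against 32.6% of all genes in either direction), with a median log2 fold change of 0.92. Their summed level was 2051 to 2607 CPM in aged and 925 to 1717 CPM in young libraries, with no overlap. Itgae, which encodes CD103, rose by 1.89 (adjusted p = 0.000898), Cxcr3 by 1.64 (0.00125) and Tigit, an inhibitory receptor gene, by 1.58 (0.00162), and these 3 were called in every fit without 1 library. The count of rises was 6 without young replicate 1, 3 or 4. These markers too were listed with earlier results of these data known, so their count does not bear independently on its direction. Of 9 Treg markers, 2 fell (22.2%), namely Gpr83 (-1.71, adjusted p = 0.00275) and Lrrc32, which encodes GARP (-1.02, adjusted p = 0.0083), and none rose by any of the 4 tools. DESeq2, limma voom and limma-trend called 3 lower, the third being Il2ra, and edgeR had 3 higher by the unadjusted p. Without young replicate 2, 2 of them were called higher. The part of a change in the mix of resting and effector cells in the levels of Tcf7 and Lef1 was not tested.

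**Figure D4:**
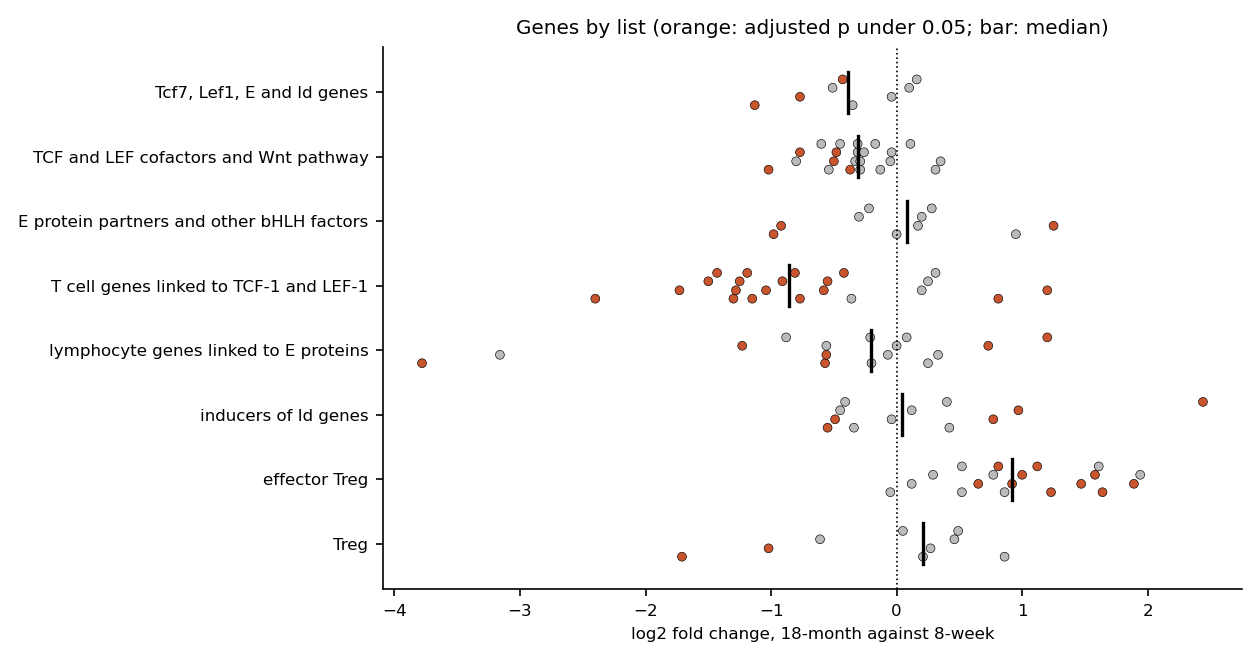
Log2 fold change of 18-month against 8-week libraries (x axis) for each tested gene of the 8 genes, the 5 pathway lists and the effector Treg and Treg markers, orange where edgeR's adjusted p was under 0.05, with a bar at the median of each list. The medians run from -0.86 for the T cell genes linked to TCF-1 and LEF-1 to 0.92 for the effector Treg markers.

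Transcripts of other splenic cells were present, and their marker lists were checked. Of all genes, 16.7% were called by edgeR, 32.6% had an unadjusted p under 0.05 (15.1% lower) and DESeq2 called 17.6%. Against 2327 genes in the full edgeR fit, limma voom called 2283, limma-trend 2370 and the fits without 1 library 1237 to 3058. B cells express Tcf3 and Tcf4. None of their 10 markers was called by edgeR, and their median log2 fold change was -0.45. The markers counted lower were 4 by the unadjusted p, 3 by DESeq2 and 1 by limma voom and by limma-trend. Without aged replicate 3, 3 of the B cell markers were called lower. The part of B cells in the Tcf3 level was not tested. The plasmacytoid dendritic cell markers summed to 377 to 605 CPM in aged and 373 to 424 CPM in young libraries. Of 9 tested, Lag3 and Runx2 rose, and Ccr9 (-1.90, adjusted p = 0.00125) and Siglech (-1.64, adjusted p = 0.014) fell. T cells also express some of these markers, among them Lag3 and Runx2, and their part in the rises and falls was not tested. NK cells and innate lymphoid cells, which express Id2, had marker sums of 33.6 to 42.7 CPM in aged and 46 to 75.7 CPM in young libraries without overlap, with 2 of 7 lower, Klrd1 (-1.27) and Klrb1c (-0.73). The Klrb1c call was lost without aged replicate 3, young replicate 3 or young replicate 4 (adjusted p up to 0.0535). DESeq2 called 3 of the 7 lower, and without young replicate 2 the count was 4, with Klra8 and Gzma added. CD8 T cells express Tcf7 and Lef1, and their 2 markers summed to 45.4 to 82 CPM in aged and 48.8 to 92.7 CPM in young libraries, with none called by any of the 4 tools and none by the unadjusted p.

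For the remaining marker lists, the edgeR counts of the full fit stand against 9.8% of all genes called higher and 6.94% lower. Counts by the unadjusted p, by the other tools and without 1 library stand against the values over all genes given above. Neutrophil markers summed to 737 to 5372 CPM in aged and 271 to 956 CPM in young libraries with 4 of 8 higher, a count that ran from 1 (without young replicate 1 or 4) to 7 (without aged replicate 3). It was 2 without aged replicate 1, and 8 by the unadjusted p. Platelet markers were at 20.5 to 43.1 against 8.83 to 18.9 CPM with 2 of 6 higher, a count of 0 without aged replicate 3, young replicate 1 or young replicate 3 and of 1 without aged replicate 2 or young replicate 2. The platelet count was 3 without aged replicate 1, by DESeq2 and by the unadjusted p. Endothelial cells express Id1 and Id3. Their markers were at 12.4 to 19.5 against 6.9 to 8.77 CPM with 2 of 6 higher by edgeR, 1 by DESeq2, 1 by limma-trend and none by limma voom. The edgeR count was 1 without aged replicate 2 and 0 without any 1 of the young libraries. Monocyte and macrophage markers overlapped at 444 to 675 and 547 to 659 CPM, with 1 of 11 higher and 3 lower, and conventional dendritic cell markers overlapped at 44.5 to 64.9 and 59.5 to 77.5 CPM, with 1 of 8 higher and 2 lower. Conventional dendritic cells also express Id2, and 4 of their markers were lower by DESeq2 and by the unadjusted p. Of this list, the 1 higher call was lost without aged replicate 3, where 3 genes were lower, and 1 gene was lower without aged replicate 1, aged replicate 2, young replicate 1, young replicate 3 or young replicate 4. Plasma cell markers, at 702 to 1260.4 and 309 to 1977 CPM, had none of 6 called by edgeR, 1 higher by the unadjusted p and by DESeq2, and 4 higher without young replicate 2. Erythroid markers, at 13243 to 161051 and 12626 to 119949 CPM, had none of 8 called by any of the 4 tools or by the unadjusted p. With mitochondrial, immunoglobulin and haemoglobin genes left out, the log2 fold changes were -1.13 for Lef1, -0.76 for Tcf3 and -0.43 for Tcf7, and all 3 were called. With all libraries thinned to the smallest they were -1.13, -0.78 and -0.43, and again all 3 were called.

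For each gene, the 3 transcripts whose profile over the 7 libraries lay nearest were found among the 9550 genes whose mean log2 CPM reached 3. Likeness is the root mean square difference of log2 CPM, each gene centred on its own mean, so that a smaller value is a closer match. For Lef1 these were Slc35g1 (0.0916), Txnip (0.104) and Igsf23 (0.11), all with log2 fold changes of -1.10 or lower. For Tcf3 they were Atp13a2 (0.0618), Cyb561a3 (0.069) and Ifngr2 (0.0723), and for Tcf7 they were Plcl2 (0.0296), Fam21 (0.0335) and Tsc22d2 (0.0366). For Tcf12 they were Topors (0.0478), Usp33 (0.0493) and Ube3c (0.0509), and for Tcf4 they were Rasa4 (0.0657), Mapre2 (0.0788) and Zfp512b (0.0821). For Id2 they were Gtdc1 (0.0363), Cwc27 (0.0458) and F2r (0.0464), for Id3 H3f3a (0.1), Phf23 (0.107) and Dyrk1b (0.133), and for Id1 Atg9a (0.0978), D930015E06Rik (0.155) and 2310022B05Rik (0.157). None of these nearest genes is among the 8.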

How the data were processed

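The authors deposited raw counts of reads per Ensembl gene for each of the 7 libraries, made from SMART-Seq cDNA without molecular identifiers, so errors from counting cover counting only. The table layout is that of HTSeq-count without strand, the submitters' processing notes name mm10, and the aligner is not given in the sources used here. Reads not on a single gene (13.06% to 20.87%) were left out. The authors also deposited a table of normalized signal (counts over 1 size factor per library), which gave gene symbols and is named in the columns as DESeq2 names them. Its log2 fold change, test statistic (a score), p-value and adjusted p-value columns, deposited by the authors, hold the authors' own comparison and were not used. The study's methods name limma.

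The quasi-likelihood test of edgeR 4.0.16 (R 4.3.3) was used for aged against young libraries, after TMM normalization and filterByExpr and without covariates, with Benjamini-Hochberg adjustment over 13904 genes and a threshold of 0.05. A count of 3 was taken as the limit of detection. Permutation tests (scipy 1.17.1) are exact and two-sided. Levels per kilobase use all exons of GENCODE M21 (GRCm38). The tests were checked on simulated data. Alternatives were DESeq2 1.42.0, limma 3.58.1 (voom, and trend with prior count 2), RLE or library size scaling, mitochondrial, immunoglobulin and haemoglobin genes left out, no filter, at least 10 counts in every library, a block for the replicate number, leaving out each library, GC and length trends removed, and thinning to the smallest library.

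The 8 genes and the 18 gene lists were chosen with earlier results of these data known. Named genes are the 8, Foxp3, Cd4 and Il2ra, up to 4 called genes with the largest change per list, and the 3 nearest profiles per gene (0.5 added to CPM). Ctnnb1, Axin2, Tcf7l2, Ctbp1, Ccr7, Prdm1, Cxcr5, Bcl6, Slamf6, Eomes, Il7r, Ets1, Dtx1, Smad2, Jup, Klra8, Gzma and Id4 are list genes named after their values were seen. For most other-cell lists only counts and sums are given, and results for some of the named genes are not reported here. Replicates are biological replicates per the labels.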

Additional observations from a re-analysis of the deposited data

Results flagged for a closer look

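Among the 4 young libraries, replicate 2 stood apart for Lef1, at 124 CPM, with the nearest other library at 107 and the lowest at 104 CPM. The gap took 0.862 of the range. It lies on the side away from the aged libraries, and without it the log2 fold change of Lef1 was -1.07 (adjusted p = 0.00103 by edgeR, in a range from 0.00103 to 0.00469 over the 7 fits without 1 library).

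The same library stood apart for the summed plasma cell markers, at 1977 CPM against 487 CPM in the nearest and 309 CPM in the lowest young library, a gap of 0.893 of the range. In all, 23 quantities of the young group were tested in this way, and chance flags about 1 in 20 such groups. The aged group, with 3 libraries, was not tested.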

How the results depend on the processing

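Lef1 was called lower in all 18 alternatives, Tcf3 in 17 and Tcf7 in 12. With each library left out in turn, the genes called over the whole table numbered 1237 to 3058 (2327 in full), the members called 2 to 4, and the log2 fold changes ran from -0.47 to -0.39 for Tcf7, from -0.55 to -0.23 for Tcf12, from -0.76 to -0.36 for Id3, from -0.22 to 0.13 for Tcf4 and from -0.19 to 0.34 for Id1. The replicate numbers showed no sign of pairing the samples (correlations of deviations -0.088, -0.276 and -0.128 between libraries of the same number). Between libraries of unlike number they ran from -0.221 to 0.2. The deviations are from group means of only 3 or 4 libraries, so these values cannot settle whether the numbers pair the samples. The fit with the replicate block called 292 genes and 1 member, Lef1, with Tcf7 at -0.39 (adjusted p = 0.163) and Tcf3 at -0.75 (adjusted p = 0.054) by edgeR. It called 7 of the T cell genes linked to TCF-1 and LEF-1 lower (16 in full) and 3 effector Treg markers higher (10 in full). No falls were left among the cofactors (5 in full), the genes linked to E proteins (4 in full) and the genes upstream of the Id genes (2 in full). In the list of E protein partners and other helix-loop-helix factors 1 fall was called (2 in full). With GC content and length trends removed, Tcf4 was at 0.02, Id1 at -0.07, Id2 at -0.01 and Id3 at -0.69, and 1210 genes were called higher and 1474 lower (1362 and 965 in full). The Tcf7 to Lef1 log2 ratios with the longest transcript were 3.26 and 2.56. The cause of these differences was not tested.

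Genes near 0 named for likeness changed sign in places. Mapre2 was at 0.02 with trends removed. With library size only, Zfp512b and Atg9a were at -0.02 and D930015E06Rik was at -0.03. With each library left out in turn, the values ran from -0.30 to 0.16 for Rasa4, -0.16 to 0.09 for Mapre2, -0.08 to 0.20 for Zfp512b, -0.17 to 0.20 for Atg9a, -0.09 to 0.23 for D930015E06Rik and -0.03 to 0.30 for 2310022B05Rik.

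Depth limits Id1, with 5 to 17 counts per library, and it has no value where each library must hold 10 counts. Every other member had a higher count in every library. Labels give no sequencing batch. Mitochondrial share and depth run with age and cannot be told apart from it, and 3 against 4 libraries cannot reach a permutation p under 0.0571.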
